A study of Homo sapiens with 42 samples.

Results

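The genes described here are 8 regulators of G-protein signalling (RGS): RGS1, RGS2, RGS4, RGS16 and RGS18 of the R4 subfamily, RGS10 and RGS14 of the R12 subfamily, and RGS19 of the RZ subfamily. They are the rows of the deposited count table that carry these symbols, and all 8 were found among the 58850 genes used. The genes were chosen by name, with earlier results of these data known. RGS4 had by then been named for its fold in OCI-AML3 cells after 6 days of VTP-50469, so its values are given here as counts, with no test. The study used VTP-50469, an inhibitor of menin, and selumetinib, an inhibitor of MEK, the kinase above ERK, alone and together, in acute myeloid leukaemia cells. The cells were NOMO1, an established human line labelled KMT2A-r, and OCI-AML3, an established human line labelled NPM1c+. In each line 7 groups of 3 libraries were sequenced: VTP-50469 at day 3 and day 6, selumetinib alone, both drugs (the combination) at day 3 and day 6, and the vehicle DMSO at day 3 and day 6. Each drug was used at 100 nM. Selumetinib alone is labelled day 1 in some fields and day 3 in others, and no DMSO group is labelled day 1, so it was set against DMSO day 3. How long selumetinib was present in the combination is not given. Each line is a single model of its genotype. Whether replicates were separate cultures is not stated in the labels, so p-values measure the spread between these libraries, which may be technical.

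RGS proteins switch off heterotrimeric G-protein signalling. A ligand-bound receptor loads the G-protein alpha subunit with GTP. The RGS domain speeds the hydrolysis of that GTP, and the alpha subunit then rebinds the beta-gamma dimer. In blood cells this shapes the response to chemokines, which act through Gi-coupled receptors. RGS1 and RGS16 are known as activation-induced genes of lymphocytes, RGS18 as a gene of platelets, megakaryocytes and myeloid cells, and RGS4 mainly from brain and heart. RGS2 differs from its relatives in its preference for Gq. RGS10 is a small protein that acts on Gi. RGS14 also carries RAS-binding domains and a GoLoco motif. RGS19, first described as GAIP, binds the scaffold protein GIPC.

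The 5 R4 genes among the 8 lie on chromosome 1. By GENCODE 29 positions on GRCh38, RGS18 and RGS1 are 389.912 kb apart and RGS1 and RGS2 229.008 kb apart, with RGS21 and RGS13 in the same stretch. Promoter windows of 4 members are printed, each from 250 bases before to 50 bases after a RefSeq start and written on the strand of the gene. RGS4 and RGS1 are shown because each was at or near 0 counts in a whole line, and RGS16 and RGS18 because they moved in opposite directions under selumetinib in OCI-AML3. The RGS4 window is chr1:163069111-163069410, plus strand, for 1 of 4 RefSeq starts of the gene. The RGS1 window is chr1:192575523-192575822, plus strand. The RGS16 window is chr1:182604340-182604639, minus strand. The RGS18 window is chr1:192158212-192158511, plus strand. All are from RefSeq on GRCh38.p14, and capitals mark every CG dinucleotide and every match to TATAAA.
RGS4: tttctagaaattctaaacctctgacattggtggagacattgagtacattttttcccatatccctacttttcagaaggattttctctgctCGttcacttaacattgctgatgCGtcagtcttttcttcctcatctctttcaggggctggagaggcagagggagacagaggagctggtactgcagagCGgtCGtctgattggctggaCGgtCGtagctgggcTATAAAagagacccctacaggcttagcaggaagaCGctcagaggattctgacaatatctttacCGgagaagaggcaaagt
RGS1: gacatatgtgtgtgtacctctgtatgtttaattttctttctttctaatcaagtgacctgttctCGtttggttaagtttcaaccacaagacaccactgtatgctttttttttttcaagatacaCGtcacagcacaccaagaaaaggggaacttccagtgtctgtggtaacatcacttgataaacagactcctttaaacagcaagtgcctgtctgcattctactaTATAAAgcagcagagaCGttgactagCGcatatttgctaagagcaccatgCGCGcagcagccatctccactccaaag
RGS16: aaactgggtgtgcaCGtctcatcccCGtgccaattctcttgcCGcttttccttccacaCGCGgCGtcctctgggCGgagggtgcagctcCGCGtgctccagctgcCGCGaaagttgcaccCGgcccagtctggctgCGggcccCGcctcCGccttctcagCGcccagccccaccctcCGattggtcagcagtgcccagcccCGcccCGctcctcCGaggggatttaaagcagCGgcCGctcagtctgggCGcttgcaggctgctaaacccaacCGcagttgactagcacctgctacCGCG
RGS18: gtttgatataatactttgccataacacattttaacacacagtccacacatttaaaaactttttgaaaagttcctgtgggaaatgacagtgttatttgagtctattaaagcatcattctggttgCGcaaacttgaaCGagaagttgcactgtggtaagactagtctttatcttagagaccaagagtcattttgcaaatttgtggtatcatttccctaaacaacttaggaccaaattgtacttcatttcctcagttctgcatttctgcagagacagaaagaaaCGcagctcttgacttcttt

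These windows differ in base composition. GC content was 47% with 8 CG dinucleotides for RGS4, 41.7% with 6 for RGS1, 67% with 26 for RGS16 and 36% with 3 for RGS18. The medians over 35116 RefSeq windows were 58.7% and 14. RGS2, not printed, had 69.7% GC and 32 CG dinucleotides. A TATAAA match stood at -27 to -22 from the start of RGS1 and at -30 to -25 from this start of RGS4, and 11.5% of all windows hold such a match. The other patterns, searched on both strands, were TGANTCA (AP-1, in 7.71% of windows), TGACGTCA (CRE, 1.85%), the CArG box (1.29%), CACGTG (E-box, 7.26%), the ISRE (3.57%), TTCNNNGAA (STAT, 7.66%) and CCGGAAG (ETS, 10.3%). No searched pattern is contained in another. None of these others had a match in the 4 printed windows. A further RGS4 window had an ISRE match at -149 to -140 and a STAT match at -229 to -221, and an RGS19 window had an E-box match at -223 to -218 and an ETS match at -97 to -91. Such matches describe letters only.

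Library totals ranged from 15264862 to 29168628 counts in NOMO1 and from 15561210 to 24262957 in OCI-AML3. Levels are CPM, counts scaled to a common total per library with the TMM method within each line. The levels of cell type markers in this paragraph are an exception. They are CPM on plain library totals, without TMM. In bulk RNA, fewer cells of a kind and less RNA per cell cannot be told apart. The mitochondrial share of counts was 3.17% ± 0.48 in day 6 and 17.8% ± 0.197 in day 3 DMSO libraries of NOMO1 (SD, n = 3 each). It was 12.3% ± 2.27 in the OCI-AML3 combination at day 6, against 3.24% ± 0.665 in OCI-AML3 DMSO day 6 (SD, n = 3 each). With mitochondrial genes left out, 140 of 141 fold changes of members kept their direction and their side of the threshold. Any other part of this share in the results was not tested. NOMO1 VTP-50469 day 3 replicate 1 and OCI-AML3 VTP-50469 day 3 replicate 2 stood apart from the other libraries of their groups. Most differences of RGS genes at day 3 of VTP-50469 are given with and without them. All 10 myeloid markers had counts in every group of both lines, with MPO at 0.606 to 2.49 CPM over the OCI-AML3 group means. Of 9 megakaryocyte and platelet markers, 7 to 8 had counts in NOMO1 groups (13.4 to 23.9 CPM summed) and 5 to 7 in OCI-AML3 groups (2.90 to 8.89 CPM summed), and PF4 was at 0 in both. Of 8 B cell markers, 5 to 6 had counts in NOMO1 groups (16.7 to 40.0 CPM summed) and 3 to 6 in OCI-AML3 groups (6.37 to 42.5 CPM summed). Most of each sum came from a single gene. It was CD79B in NOMO1 (12.65 to 27.7 CPM over group means) and EBF1 in OCI-AML3 (6.11 to 34.2 CPM). Of 9 T and NK cell markers, 7 to 9 had counts in NOMO1 groups (118 to 224 CPM summed) and 2 to 4 in OCI-AML3 groups (0.926 to 6.68 CPM summed). NKG7 made up most of these sums, at 108 to 179 CPM over the NOMO1 group means, with CD3D there at 4.56 to 37.7 CPM. Of 8 erythroid markers, 2 to 4 had counts in NOMO1 groups (17.6 to 33.7 CPM summed) and 1 to 2 in OCI-AML3 groups (14.5 to 28.1 CPM summed). EPOR made up most of these sums, at 18.2 to 28.5 CPM over the group means of NOMO1 and 15.75 to 24.8 CPM over those of OCI-AML3. Of 10 endothelial and stromal markers, 8 to 10 had counts in NOMO1 groups (306 to 752 CPM summed) and 5 to 10 in OCI-AML3 groups (18.3 to 168 CPM summed). Within that list PECAM1, which blood cells also carry, was at 132 ± 6.16 CPM in the OCI-AML3 combination and 74.0 ± 5.47 CPM under VTP-50469 at day 6, against 13.9 ± 0.455 CPM in DMSO (SD, n = 3 each). In NOMO1 it was at 497 ± 29.1 CPM in the combination and 419 ± 15.8 CPM under VTP-50469 at day 6, against 243 ± 9.87 CPM in DMSO (SD, n = 3 each). The endothelial genes VWF and CDH5 stayed at or under 0.611 CPM in all group means. The list also holds collagen and other stromal genes, and keratin and other epithelial genes, and some of these were high. Over the NOMO1 group means KRT8 ran from 24.5 to 285 CPM, COL1A1 from 24.4 to 241.5 CPM and KRT18 from 16.8 to 31.5 CPM. Over those of OCI-AML3, COL1A2 ran from 0.322 to 55.5 CPM. The part of such genes in the results was not tested.

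Levels of different genes were compared per length of transcript, in RPKM, which divides CPM by the length of the exons. RGS19 had the highest mean RPKM of the 8 genes in all 7 groups of NOMO1 and in the VTP-50469 and DMSO groups of OCI-AML3, and RGS18 had it in the other OCI-AML3 groups, those with selumetinib. Under VTP-50469 day 6, RGS19 averaged 104 ± 5.09 RPKM in NOMO1, against 57.8 ± 1.88 under DMSO (SD, n = 3 each). In OCI-AML3 it averaged 41.9 ± 1.11 RPKM under VTP-50469 day 6, against 54.5 ± 1.24 under DMSO (SD, n = 3 each). In NOMO1 DMSO day 6 the order of mean RPKM after RGS19 was RGS10 (33.8 ± 2.71), RGS16 (19.8 ± 8.34), RGS18 (12.1 ± 1.24), RGS1 (6.69 ± 2.49), RGS14 (5.91 ± 0.719) and RGS2 (3.19 ± 0.505), with RGS4 at 0. RGS16 and RGS18 lay within the SD of RGS16, and RGS1 and RGS14 within the SD of RGS1. In OCI-AML3 DMSO day 6 it was RGS10 (42.1 ± 3.01), RGS18 (31.8 ± 1.496), RGS16 (18.5 ± 0.782), RGS14 (6.81 ± 0.496) and RGS2 (1.99 ± 0.529), with RGS1 and RGS4 at 0 and neighbours farther apart than their SDs. Genes at 0 in any group of a line, RGS4 in both lines and RGS1 in OCI-AML3, are left out of the folds between the highest and lowest group mean that follow. Over the 7 group means of NOMO1, CPM spanned 16.7-fold for RGS16, 8.35-fold for RGS1, 8.14-fold for RGS2, 3.12-fold for RGS18, 2.113-fold for RGS14, 1.95-fold for RGS19 and 1.68-fold for RGS10. Over those of OCI-AML3 it spanned 15.2-fold for RGS16, 2.49-fold for RGS18, 2.06-fold for RGS10, 1.67-fold for RGS14, 1.41-fold for RGS19 and 1.36-fold for RGS2, while RGS4 ran from 0 to 13.8 CPM.

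**Figure D1:**
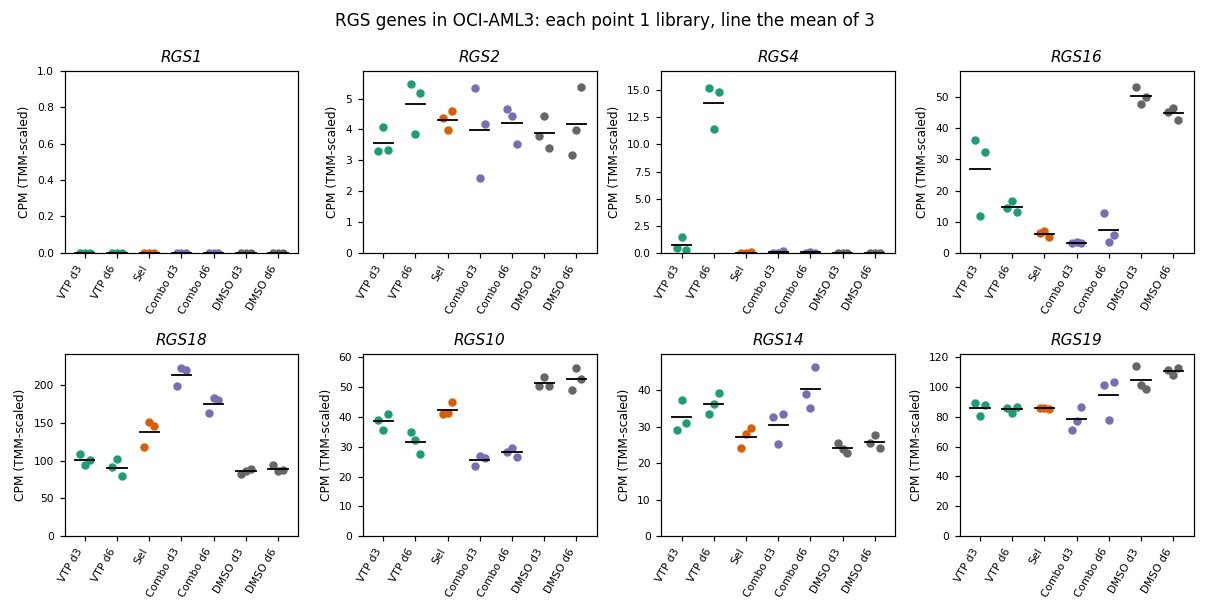
TMM-scaled CPM of the 8 RGS genes in the 21 OCI-AML3 libraries, 1 panel per gene with its own linear axis from 0; points are libraries and lines are means of 3 (VTP, VTP-50469; Sel, selumetinib; Combo, both drugs). RGS4 stands at 11.4 to 15.2 CPM under VTP-50469 day 6, RGS16 is lower in all libraries given selumetinib than in all DMSO libraries, and RGS1 has no counts.

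RGS4 was seen at more than a trace in a single line and under a single drug, OCI-AML3 with VTP-50469 alone. Its counts at day 6 were 262, 190 and 330 (15.2, 11.4 and 14.9 CPM), against 0 in each of the 3 DMSO day 6 libraries. The groups did not overlap, and depth-scaled counts were at least 250.3-fold higher, taking a floor of 3 counts over the DMSO group. At day 3 of VTP-50469 the counts were 9, 30 and 5, against 0 in each DMSO day 3 library, at least 14.6-fold higher on the same floor. The 30 counts belong to the replicate that stood apart, and without it the day 3 counts were at least 6.95-fold higher than DMSO. With selumetinib added, RGS4 was near the floor, at 0, 0 and 4 counts at day 3 and 0, 2 and 0 at day 6, and selumetinib alone gave 0, 0 and 2. The ratio of VTP-50469 alone to the combination was 10.3 [3.76 to 39.6] at day 3 and 335 [92.3 to 2769] at day 6 (95% intervals in brackets, for counting error only). VTP-50469 day 6 over day 3 gave 18.5 [13.6 to 25.6]. Without the replicate that stood apart, the day 3 ratio of VTP-50469 alone to the combination was 4.93 [1.55 to 20.6], and that of day 6 over day 3 was 38.8 [23.0 to 71.2]. RGS4 entered the fit only through the VTP-50469 groups, where it was high, so it was not tested and is in no count of members that passed. NOMO1 had 3 RGS4 counts in all, in a single VTP-50469 day 3 library, out of 489638017.

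**Figure D2:**
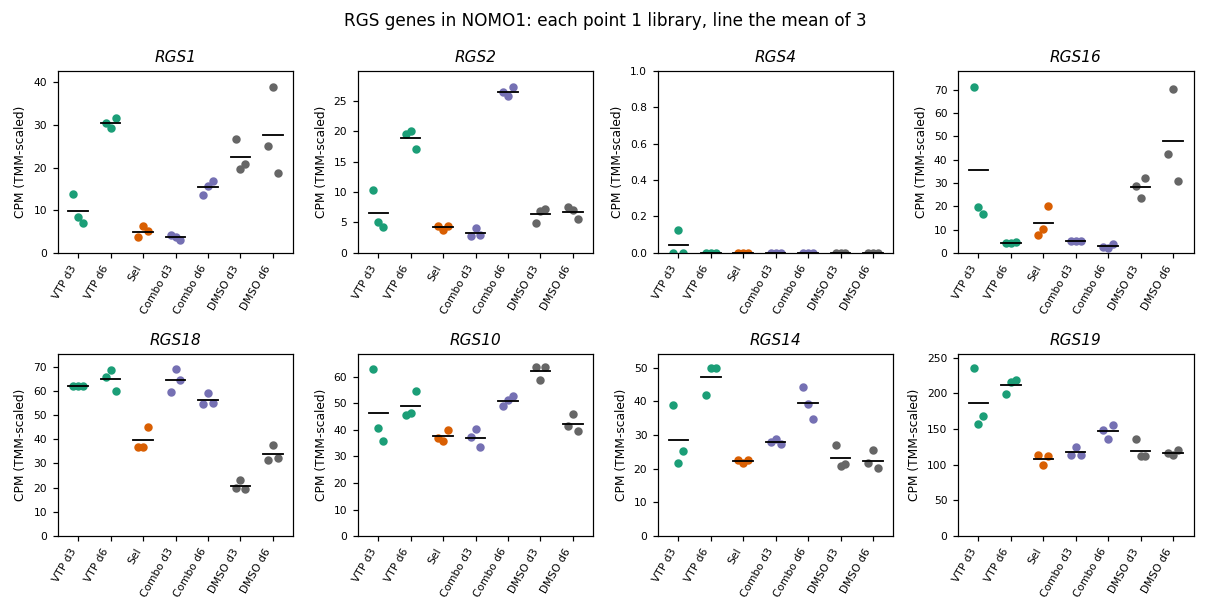
TMM-scaled CPM of the 8 RGS genes in the 21 NOMO1 libraries, 1 panel per gene with its own linear axis from 0; points are libraries and lines are means of 3. RGS2 is at 25.7 to 27.3 CPM in the combination at day 6, RGS16 is at 2.21 to 4.89 CPM in both day 6 groups given VTP-50469, and RGS18 is higher in each treated library than in the DMSO libraries it is compared with.

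RGS1, which damps chemokine-driven migration of lymphocytes, was read in NOMO1 and not in OCI-AML3. It had 0 counts in all 21 OCI-AML3 libraries, out of 389598565, which allows a level of up to 0.0077 CPM. In NOMO1 under DMSO it stood at 26.7, 19.6 and 20.9 CPM at day 3 and 25.0, 38.8 and 18.8 CPM at day 6. Depth-scaled counts were at least 534-fold higher in NOMO1 than in OCI-AML3 under DMSO day 6, on a floor of 3 counts over the group. Within NOMO1, selumetinib alone gave 3.63, 6.19 and 5.15 CPM, below every DMSO library (log2 fold change -2.19 ± 0.27 SE, adjusted p = 9.97e-07, edgeR's quasi-likelihood test, adjusted over all genes tested, as throughout). The combination at day 3 had 4.31, 3.61 and 3.01 CPM (-2.62 ± 0.27, adjusted p = 7.03e-08). VTP-50469 at day 3 had 13.9, 8.38 and 7.02 CPM (-1.21 ± 0.25, adjusted p = 0.000458, and -1.54, adjusted p = 2.45e-05 without replicate 1). None of these groups overlapped DMSO day 3. At day 6, RGS1 under VTP-50469 had 30.5, 29.2 and 31.6 CPM, within the range of DMSO (0.14 ± 0.24, adjusted p = 0.664). The combination at day 6 had 13.5, 15.8 and 16.8 CPM, below each DMSO library of that day (-0.84 ± 0.24, adjusted p = 0.00582), a call that was lost without DMSO replicate 2 (-0.52, adjusted p = 0.0541). The combination was also below VTP-50469 alone, at day 3 (-1.42 ± 0.28, adjusted p = 0.000483, and -1.08, adjusted p = 0.00312 without VTP-50469 replicate 1) and at day 6 (-0.98 ± 0.24, adjusted p = 0.0046).

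Among the genes with counts in every group of a line, RGS16 had the widest span of group means in both lines. In OCI-AML3, selumetinib alone gave 6.28, 6.87 and 5.17 CPM, against 53.1, 47.8 and 50.1 CPM in DMSO day 3 (-3.05 ± 0.38, adjusted p = 1.6e-05). The combination at day 3 gave 3.15, 3.64 and 3.13 CPM (-3.93 ± 0.41, adjusted p = 6.43e-07, and -3.02 ± 0.41, adjusted p = 1.48e-05 against VTP-50469 alone, or -3.38, adjusted p = 1.49e-09 without its replicate 2). Neither group reached the DMSO range. VTP-50469 alone gave 36.2, 11.9 and 32.4 CPM at day 3, where the low value is that of the replicate that stood apart. That difference did not pass with it (-0.91 ± 0.34, adjusted p = 0.117) or without it (-0.55, adjusted p = 0.274). At day 6, VTP-50469 gave 14.4, 16.5 and 13.1 CPM and the combination 12.7, 3.54 and 5.88 CPM, against 45.3, 46.4 and 42.7 CPM in DMSO, with no overlap. Both fell against DMSO (-1.61 ± 0.36, adjusted p = 0.00198, and -2.61 ± 0.38, adjusted p = 2.83e-05). The combination against VTP-50469 at day 6 did not pass (-0.99 ± 0.39, adjusted p = 0.0513), but passed without combination replicate 1 (-1.64, adjusted p = 0.00203) and with DESeq2 (-0.95, adjusted p = 0.0367).

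In NOMO1, RGS16 was lowest in the treated groups of day 6. VTP-50469 gave 4.15, 4.32 and 4.89 CPM and the combination 2.67, 2.21 and 3.75 CPM, against 42.4, 70.3 and 31.0 CPM in DMSO (-3.44 ± 0.54, adjusted p = 7.19e-05, and -4.08 ± 0.57, adjusted p = 1.8e-05). All 6 treated libraries lay below all 3 DMSO libraries. At day 3 the VTP-50469 libraries were scattered, at 71.0, 19.8 and 16.5 CPM, against 28.6, 23.5 and 32.3 CPM in DMSO. The difference did not pass with all libraries (0.34 ± 0.47, adjusted p = 0.577) or without replicate 1 (-0.63, adjusted p = 0.168). The combination at day 3 had 5.04, 5.28 and 4.97 CPM, below each DMSO library (-2.46 ± 0.53, adjusted p = 0.000899). Against VTP-50469 at day 3 the combination was lower (-2.80 ± 0.53, adjusted p = 0.00068, and -1.83, adjusted p = 0.00161 without VTP-50469 replicate 1). Selumetinib alone had 7.89, 10.2 and 20.2 CPM, below each DMSO day 3 library, and missed the threshold (-1.14 ± 0.50, adjusted p = 0.0654). It passed with DESeq2 (-1.18, adjusted p = 0.0343), without selumetinib replicate 3 (-1.63, adjusted p = 0.0268) and against DMSO day 6 (-1.91, adjusted p = 0.00777).

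**Figure D3:**
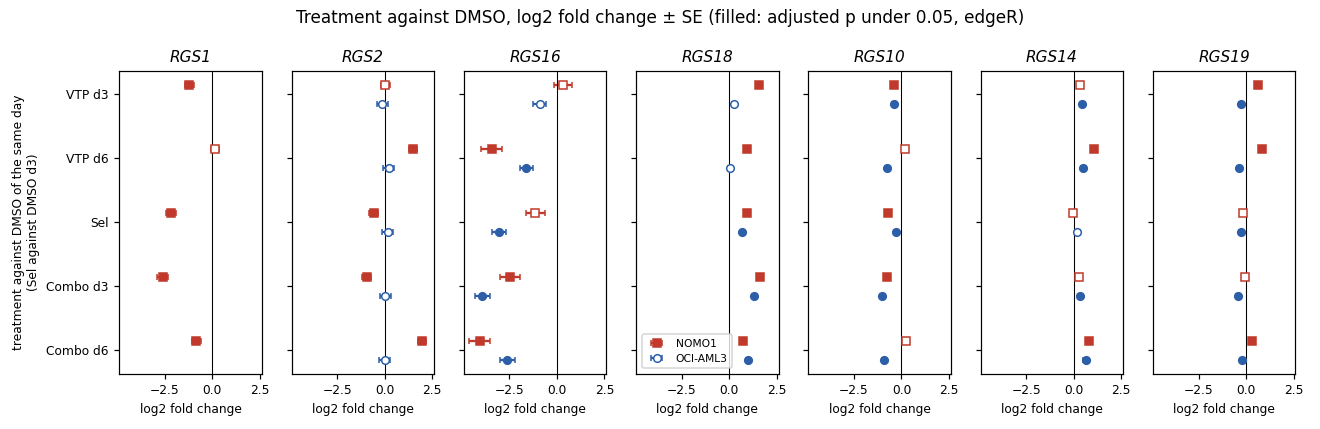
Log2 fold change of each treatment against DMSO, with standard error bars, for 7 RGS genes. RGS4 is left out because it was not tested, and RGS1 is shown for NOMO1 only because it had no counts in OCI-AML3. Squares are NOMO1, circles OCI-AML3, and filled symbols passed an adjusted p of 0.05. RGS16 lies left of 0 in all but VTP-50469 day 3 of NOMO1, RGS18 lies right of 0 in every comparison shown, and RGS19 has opposite signs in the lines under VTP-50469.

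RGS18 moved the other way. In OCI-AML3, selumetinib alone gave 119, 151 and 146 CPM, against 83.0, 86.1 and 89.0 CPM in DMSO day 3, and the groups did not overlap (0.69 ± 0.09, adjusted p = 8.47e-07). VTP-50469 alone gave 109, 93.8 and 101 CPM at day 3, which did not pass with all libraries (0.24 ± 0.09, adjusted p = 0.099) or without replicate 2 (0.29, adjusted p = 0.0745), but passed with library totals in place of TMM (0.29, adjusted p = 0.0259). At day 6 it gave 91.8, 102 and 79.1 CPM, against 93.8, 85.7 and 88.0 CPM in DMSO, and the groups overlapped (0.03 ± 0.09, adjusted p = 0.867). The combination gave 198, 223 and 221 CPM at day 3 and 163, 183 and 181 CPM at day 6, and each of these 6 libraries lay above every VTP-50469 and DMSO library of the line. Against VTP-50469 alone the rise passed at day 3 (1.08 ± 0.09, adjusted p = 5.39e-11, and 1.02, adjusted p = 1.7e-10 without VTP-50469 replicate 2) and day 6 (0.95 ± 0.09, adjusted p = 1.25e-09). Against DMSO it was 1.31 ± 0.09, adjusted p = 7.13e-13 at day 3 and 0.98 ± 0.09, adjusted p = 3.45e-10 at day 6.

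In NOMO1, RGS18 rose under VTP-50469 itself. At day 3 it had 62.0, 61.8 and 62.2 CPM, against 19.7, 23.1 and 19.5 CPM in DMSO (1.58 ± 0.10, adjusted p = 2.32e-13, and 1.58, adjusted p = 1.86e-16 without replicate 1). At day 6 it had 65.8, 68.4 and 60.1 CPM, against 31.6, 37.8 and 32.1 CPM in DMSO (0.94 ± 0.09, adjusted p = 2.84e-09). The treated libraries lay above all DMSO libraries on each day. The combination had 59.6, 69.1 and 64.6 CPM at day 3 and 54.5, 58.9 and 55.1 CPM at day 6. Its difference from VTP-50469 alone did not pass at day 3 (0.06 ± 0.09, adjusted p = 0.68, and 0.06, adjusted p = 0.709 without VTP-50469 replicate 1) or day 6 (-0.21 ± 0.09, adjusted p = 0.0982), and from DMSO it passed on both days (1.63 ± 0.10, adjusted p = 4.85e-14, and 0.73 ± 0.09, adjusted p = 1.46e-07). Selumetinib alone had 36.9, 36.8 and 44.9 CPM, above DMSO day 3 (0.93 ± 0.10, adjusted p = 5.8e-09). DMSO day 6 was itself higher than DMSO day 3 (0.70 ± 0.10, adjusted p = 7.19e-07). Against DMSO day 6, selumetinib did not pass (0.22, adjusted p = 0.0715), while VTP-50469 day 3 (0.87, adjusted p = 5.16e-08) and the combination at day 3 (0.93, adjusted p = 4.61e-09) did.

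RGS2, the member that prefers Gq, stayed at 2.43 to 5.47 CPM in every OCI-AML3 library. No treatment passed there with edgeR, where the smallest unadjusted p was 0.466, or with DESeq2, and its log2 fold changes against DMSO ran from -0.12 under VTP-50469 day 3 to 0.21 under VTP-50469 day 6. In NOMO1 it was higher at day 6. VTP-50469 gave 19.6, 19.9 and 17.1 CPM and the combination 26.4, 25.7 and 27.3 CPM, against 7.50, 7.08 and 5.49 CPM in DMSO. The treated groups did not overlap DMSO (1.5 ± 0.22, adjusted p = 2.35e-06, and 1.98 ± 0.22, adjusted p = 1.75e-08). The combination lay above VTP-50469 in each library, but that difference did not pass (0.49 ± 0.21, adjusted p = 0.0851). At day 3 the combination had 2.76, 4.10 and 2.89 CPM, against 4.96, 6.83 and 7.14 CPM in DMSO, below each of them (-0.95 ± 0.24, adjusted p = 0.00154). Selumetinib alone had 4.43, 3.76 and 4.38 CPM (-0.58 ± 0.24, adjusted p = 0.0453), and that call was lost without any 1 of 5 libraries (DMSO day 3 replicates 2 and 3 and each selumetinib replicate), with log2 fold changes of -0.60 to -0.47. VTP-50469 at day 3 had 10.3, 5.05 and 4.24 CPM, with no call with replicate 1 (0.04 ± 0.23, adjusted p = 0.899) or without it (-0.43, adjusted p = 0.065). The combination was below VTP-50469 at day 3 (-0.99 ± 0.24, adjusted p = 0.00201, and -0.51, adjusted p = 0.046 without that replicate).

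RGS10, which acts on Gi, fell in OCI-AML3 under each treatment. The combination had 23.5, 27.0 and 26.3 CPM at day 3, against 50.5, 53.5 and 50.4 CPM in DMSO (-1.01 ± 0.10, adjusted p = 1.36e-09). At day 6, VTP-50469 had 34.8, 32.2 and 27.7 CPM and the combination 28.4, 29.6 and 26.7 CPM, against 49.0, 56.6 and 52.7 CPM in DMSO (-0.74 ± 0.10, adjusted p = 7.3e-07, and -0.90 ± 0.10, adjusted p = 1.35e-08). No treated library of these groups reached the DMSO range. The combination was also below VTP-50469 alone at day 3 (-0.59 ± 0.10, adjusted p = 1.9e-05, and -0.65, adjusted p = 1.0e-05 without VTP-50469 replicate 2). VTP-50469 at day 3 was lower (-0.42 ± 0.10, adjusted p = 0.00461, and -0.36, adjusted p = 0.0459 without replicate 2). Selumetinib alone was lower too (-0.28 ± 0.10, adjusted p = 0.0343), a call that was lost without any 1 of 5 libraries (each DMSO day 3 replicate and selumetinib replicates 1 and 2), with values of -0.30 to -0.24. In NOMO1 the calls of day 3 moved with the control. DMSO day 6 stood at 41.6, 46.0 and 39.4 CPM, below DMSO day 3 at 63.7, 58.5 and 63.7 CPM. Against DMSO day 3, RGS10 was lower under VTP-50469 (62.9, 40.5 and 35.9 CPM, -0.42 ± 0.13, adjusted p = 0.0114), selumetinib (-0.72 ± 0.14, adjusted p = 8.8e-05) and the combination (-0.75 ± 0.14, adjusted p = 4.62e-05). Against DMSO day 6, VTP-50469 (0.13, adjusted p = 0.537), selumetinib (-0.17, adjusted p = 0.366) and the combination (-0.20, adjusted p = 0.254) did not pass. The VTP-50469 call held without its replicate 1 (-0.69, adjusted p = 1.08e-07) and was lost without replicate 2 (-0.31, adjusted p = 0.0877) or replicate 3 (-0.26, adjusted p = 0.0994). At day 6 neither VTP-50469 (0.20 ± 0.13, adjusted p = 0.225) nor the combination (0.26 ± 0.13, adjusted p = 0.104) passed.

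RGS14, the member that also binds RAS, rose at day 6 in both lines. In NOMO1 it had 42.01, 49.97 and 49.8 CPM under VTP-50469 and 44.2, 39.2 and 34.8 CPM under the combination, against 21.6, 25.5 and 20.2 CPM in DMSO (1.07 ± 0.15, adjusted p = 2.38e-06, and 0.81 ± 0.15, adjusted p = 7.08e-05). In OCI-AML3 it had 33.5, 36.4 and 39.2 CPM under VTP-50469 and 39.1, 35.2 and 46.4 CPM under the combination, against 25.7, 27.8 and 24.1 CPM in DMSO (0.49 ± 0.13, adjusted p = 0.00283, and 0.64 ± 0.13, adjusted p = 0.000119). In both lines every treated day 6 library lay above every DMSO day 6 library. Selumetinib alone gave 22.7, 21.8 and 22.6 CPM in NOMO1 (-0.05 ± 0.16, adjusted p = 0.824) and 24.1, 28.1 and 29.7 CPM in OCI-AML3 (0.18 ± 0.13, adjusted p = 0.361). At day 3 in OCI-AML3, RGS14 was higher under VTP-50469 (0.43 ± 0.13, adjusted p = 0.025) and the combination (0.34 ± 0.13, adjusted p = 0.0311). The VTP-50469 call was lost without VTP-50469 replicate 2 (0.32, adjusted p = 0.216) or DMSO day 3 replicate 2 or 3, and the combination call without combination replicate 1 or 3 or DMSO day 3 replicate 2 or 3 (0.26 to 0.32). With DMSO day 6 as the control neither VTP-50469 (0.33, adjusted p = 0.104) nor the combination (0.24, adjusted p = 0.13) passed at day 3. In NOMO1 at day 3, RGS14 did not pass under VTP-50469 (0.30 ± 0.16, adjusted p = 0.1045) or the combination (0.28 ± 0.15, adjusted p = 0.1295). Both passed without DMSO day 3 replicate 1 (0.44, adjusted p = 0.0378, and 0.42, adjusted p = 0.0454). VTP-50469 also passed without its replicate 2 (0.49, adjusted p = 0.00743).

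RGS19 was higher in NOMO1 and lower in OCI-AML3 under VTP-50469. In NOMO1 it had 200, 217 and 219 CPM at day 6, against 116, 114 and 121 CPM in DMSO, with no overlap (0.85 ± 0.11, adjusted p = 4.54e-07). At day 3 it had 236, 157 and 168 CPM, against 136, 112 and 112 CPM in DMSO (0.64 ± 0.11, adjusted p = 2.46e-05, and 0.44, adjusted p = 5.04e-06 without replicate 1). The combination had 114, 124 and 114 CPM at day 3 and 148, 136 and 156 CPM at day 6, all below the VTP-50469 libraries of the same day. It passed against VTP-50469 at day 3 (-0.67 ± 0.11, adjusted p = 2.87e-05, and -0.47, adjusted p = 2.74e-06 without VTP-50469 replicate 1) and at day 6 (-0.53 ± 0.11, adjusted p = 0.000639). Against DMSO the combination did not pass at day 3 (-0.03 ± 0.11, adjusted p = 0.824), with a sign that flipped to 0.27 with library totals in place of TMM. At day 6 it gave 0.33 ± 0.11, adjusted p = 0.0133, a call that was lost without combination replicate 3 or DMSO day 6 replicate 1 or 2 (0.27 to 0.30). In OCI-AML3, VTP-50469 gave 86.0, 82.3 and 86.4 CPM at day 6, against 111, 108 and 113 CPM in DMSO, below each of them (-0.38 ± 0.09, adjusted p = 0.00106). The combination at day 3 had 71.0, 77.2 and 86.6 CPM, against 114, 101 and 98.7 CPM in DMSO (-0.42 ± 0.09, adjusted p = 0.000221). The call under VTP-50469 day 3 (-0.28 ± 0.09, adjusted p = 0.0343) was lost without VTP-50469 replicate 2 (-0.24, adjusted p = 0.181) or 3 or DMSO day 3 replicate 1 or 2. The call under selumetinib (-0.29 ± 0.09, adjusted p = 0.014) was lost without selumetinib replicate 2 or 3 or DMSO day 3 replicate 1 (-0.22, adjusted p = 0.112). That of the combination at day 6 (-0.23 ± 0.09, adjusted p = 0.033) was lost without combination replicate 2 (-0.14, adjusted p = 0.166) or DMSO day 6 replicate 1 or 3.

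Reads carry no strand. AL390957.1, a long non-coding gene on the opposite strand, overlaps RGS1, RGS2 and RGS18 and had 368 counts over all 42 libraries, against 8207 for RGS1, 6738 for RGS2 and 73931 for RGS18. The microRNA gene MIR6813 lies within RGS19 on the same strand and had 408 counts, against 106566 for RGS19. Reads of genes that overlap on opposite strands cannot be told apart without strand. Strand would not separate MIR6813 from RGS19.

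Counts of members that passed are given beside the share of all tested genes that passed in the same comparison. In NOMO1, 4 of 7 members passed, beside 52.4% of 16569 genes, under VTP-50469 day 3. The same figures were 5 of 7 beside 48.8% at day 6 and 4 of 7 beside 54.1% under selumetinib. In the NOMO1 combination they were 5 of 7 beside 58.7% at day 3 and 6 of 7 beside 55.4% at day 6. For the combination against VTP-50469 alone they were 4 of 7 beside 35.1% at day 3 and 2 of 7 beside 27.6% at day 6. In OCI-AML3, 3 of 6 members passed, beside 10.9% of 16384 genes, under VTP-50469 day 3. The same figures were 4 of 6 beside 34.7% at day 6 and 4 of 6 beside 27.4% under selumetinib. In the OCI-AML3 combination they were 5 of 6 beside 48.1% at day 3 and 5 of 6 beside 49.6% at day 6. For the combination against VTP-50469 alone they were 3 of 6 beside 42.2% at day 3 and 1 of 6 beside 41.3% at day 6. RGS4 is in none of these counts. Some of the calls counted here ended with library totals in place of TMM. In NOMO1 these were RGS10 under VTP-50469 day 3 (-0.10, adjusted p = 0.55), RGS2 under selumetinib (-0.21, adjusted p = 0.48) and RGS19 in the combination at day 6 (0.21, adjusted p = 0.0874). In OCI-AML3 these were RGS19 under VTP-50469 day 3 (-0.23, adjusted p = 0.095), and RGS10 (-0.22, adjusted p = 0.0847) and RGS19 (-0.23, adjusted p = 0.0617) under selumetinib. With only the groups compared in the fit, RGS10 in NOMO1 under VTP-50469 day 3 (-0.46, adjusted p = 0.0751) and RGS2 in the NOMO1 combination against VTP-50469 at day 3 (-0.9958, adjusted p = 0.0645) did not pass, and with no filter RGS10 in OCI-AML3 under selumetinib did not (-0.27, adjusted p = 0.0952). RGS19 in the OCI-AML3 combination at day 6 was not called by DESeq2 (-0.20, adjusted p = 0.0624). Because the genes were named with results in view, nothing is drawn from these counts. The comparisons within a line share control libraries.

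The departure from additivity at day 3 was taken as the log2 effect of selumetinib added to VTP-50469 minus its effect alone. The effect alone came from libraries labelled day 1 in some fields, set against DMSO day 3. A difference in exposure time cannot be told apart here from an interaction of the drugs. In NOMO1, 2 of 7 members passed, beside 37.0% of genes. These were RGS18 (-0.87 ± 0.13, adjusted p = 8.57e-06) and RGS19 (-0.53 ± 0.15, adjusted p = 0.00905). With DMSO day 6 as the control RGS18 did not pass (-0.17, adjusted p = 0.468) and RGS19 did (-0.56, adjusted p = 0.0158). Without VTP-50469 day 3 replicate 1, RGS1 (1.09, adjusted p = 0.0216) and RGS10 (0.66, adjusted p = 7.99e-05) passed as well, with RGS18 at -0.89, adjusted p = 9.26e-07 and RGS19 at -0.34, adjusted p = 0.00703. RGS16 did not pass with all libraries (-1.66 ± 0.72, adjusted p = 0.0846) or with DMSO day 6 as the control (-0.89, adjusted p = 0.485). It passed without VTP-50469 day 3 replicate 2 (-1.98, adjusted p = 0.0462) or replicate 3 (-2.03, adjusted p = 0.031). In OCI-AML3, edgeR called 0 of 6 members, beside 8.94% of genes, while 2 had an unadjusted p under 0.05 and DESeq2 called 1. The smallest adjusted p was that of RGS18 (0.39 ± 0.13, adjusted p = 0.051, and 0.33, adjusted p = 0.102 without VTP-50469 replicate 2). For DMSO day 6 against DMSO day 3, 2 of 7 members passed, beside 51.0% of genes in NOMO1, RGS10 (-0.55 ± 0.13, adjusted p = 0.0015, and -0.21, adjusted p = 0.172 with library totals) and RGS18. In OCI-AML3, edgeR called 0 of 6 members there, beside 0.0% of genes. DESeq2 called 0 members, and 0 had an unadjusted p under 0.05. Over all genes tested in that comparison, edgeR called 0 and DESeq2 1, and 174 had an unadjusted p under 0.05 by edgeR.

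Effects at day 6 were compared between the lines as the log2 fold change in NOMO1 minus that in OCI-AML3, for the 6 members with counts in both. For VTP-50469 against DMSO, 6 of 6 members passed, beside 33.4% of 18707 genes. RGS19 (1.30 ± 0.14, adjusted p = 7.39e-10), RGS18 (0.98 ± 0.13, adjusted p = 8.44e-08) and RGS10 (1.01 ± 0.17, adjusted p = 4.35e-06) had more positive effects in NOMO1. So did RGS2 (1.35 ± 0.35, adjusted p = 0.00195) and RGS14 (0.65 ± 0.20, adjusted p = 0.0116, and 0.48, adjusted p = 0.065 with library totals). RGS16 fell further in NOMO1 (-1.75 ± 0.63, adjusted p = 0.0307), a call that was lost without any 1 of 6 libraries. It was -1.36 without NOMO1 DMSO day 6 replicate 2, and -1.76 to -1.66 without NOMO1 VTP-50469 day 6 replicate 1 or 2, OCI-AML3 VTP-50469 day 6 replicate 2 or OCI-AML3 DMSO day 6 replicate 1 or 3. For the combination against DMSO, 3 of 6 members passed, beside 34.9% of genes: RGS2 (2.03 ± 0.36, adjusted p = 9.72e-06), RGS10 (1.22 ± 0.17, adjusted p = 1.38e-07) and RGS19 (0.61 ± 0.14, adjusted p = 0.000674). For the combination against VTP-50469 alone, 2 of 6 members passed, beside 20.6% of genes: RGS18 (-1.17 ± 0.13, adjusted p = 7.42e-09) and RGS19 (-0.69 ± 0.14, adjusted p = 0.000387). For the level under DMSO day 6, NOMO1 against OCI-AML3, 3 of 6 members passed, beside 61.3% of genes. RGS1 entered that fit only through NOMO1 and is not counted. RGS2 (1.06 ± 0.25, adjusted p = 0.000345) and RGS19 (0.47 ± 0.10, adjusted p = 0.000104) were higher in NOMO1, and RGS18 was lower (-1.01 ± 0.10, adjusted p = 1.29e-12). Library totals in place of TMM moved the median of all genes in that comparison by -0.25 on the log2 scale, and with them RGS19 did not pass (0.20, adjusted p = 0.0884), while RGS2 (0.79, adjusted p = 0.00659) and RGS18 (-1.29, adjusted p = 1.43e-16) did. Those differences come from a fit over both lines, and the CPM above, scaled within a line, are not set across lines.

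**Figure D4:**
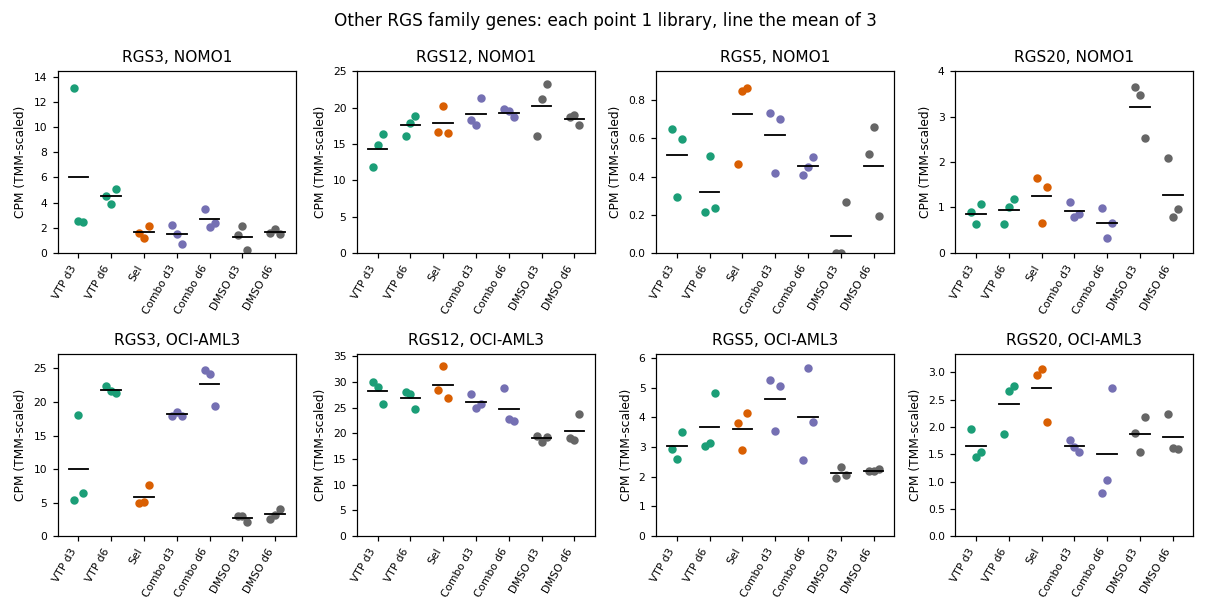
TMM-scaled CPM of 4 RGS genes outside the 8, by library (points) with the mean of 3 (lines), in NOMO1 (upper row) and OCI-AML3 (lower row), each panel with its own linear axis from 0. In OCI-AML3, RGS3 lies at 21.3 to 22.4 CPM under VTP-50469 day 6 and 19.4 to 24.7 CPM in the combination at day 6, above the 2.6 to 4.06 CPM of DMSO day 6.

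Of 15 further genes of the family and its binding proteins, 6 passed the filter on low counts in NOMO1 and 8 in OCI-AML3. Under VTP-50469 day 6, 0 of 6 passed in NOMO1, beside 48.8% of all genes, while 2 had an unadjusted p under 0.05 in edgeR. In OCI-AML3, 2 of 8 rose and 0 fell, which is 25% beside 34.7% of all genes. RGS3, another R4 member, had 22.4, 21.6 and 21.3 CPM in OCI-AML3 under VTP-50469 day 6 and 24.7, 24.1 and 19.4 CPM in the combination, against 2.596, 3.23 and 4.06 CPM in DMSO. Neither treated group overlapped DMSO (2.72 ± 0.32, adjusted p = 5.62e-07, and 2.78 ± 0.32, adjusted p = 1.99e-07). The combination against VTP-50469 at day 6 did not pass for RGS3 (0.06 ± 0.28, adjusted p = 0.885), beside the near absence of RGS4 in the combination given above. At day 3, VTP-50469 had 5.41, 18.1 and 6.49 CPM and the combination 17.9, 18.5 and 18.0 CPM, and the highest of the VTP-50469 values is that of the replicate that stood apart. VTP-50469 day 3 passed against DMSO with that replicate (1.89 ± 0.33, adjusted p = 0.000395) and gave 1.139, adjusted p = 0.00078 without it. RGS3 in NOMO1 had 4.54, 3.92 and 5.08 CPM under VTP-50469 day 6, against 1.60, 1.89 and 1.498 CPM in DMSO (1.43 ± 0.59, adjusted p = 0.054). RGS12, an R12 member, moved in opposite directions in the lines under VTP-50469 day 3. It was lower in NOMO1 (-0.49 ± 0.14, adjusted p = 0.00359, and -0.37, adjusted p = 0.026 without replicate 1) and higher in OCI-AML3 (0.56 ± 0.13, adjusted p = 0.00264, and 0.54, adjusted p = 0.0124 without replicate 2), and the difference between the lines was not tested at that day. It also rose in OCI-AML3 under selumetinib (0.62 ± 0.13, adjusted p = 0.000308) and VTP-50469 day 6 (0.39 ± 0.13, adjusted p = 0.0151), and the day 6 call was lost without VTP-50469 replicate 1 or 2 or DMSO replicate 1 or 2 (0.32 to 0.37). RGS5, of the R4 subfamily, rose in the OCI-AML3 combination at day 3 (1.13 ± 0.32, adjusted p = 0.00407) and day 6 (0.86 ± 0.32, adjusted p = 0.0265). The day 6 call was lost without any DMSO replicate or without combination replicate 2 (0.51, adjusted p = 0.227). RGS20, of the RZ subfamily, was lower in NOMO1 under selumetinib than in DMSO day 3 (-1.34 ± 0.44, adjusted p = 0.0122), and also lower in DMSO day 6 than in DMSO day 3 (-1.34 ± 0.44, adjusted p = 0.0124). The first was lost without selumetinib replicate 2 (-1.04, adjusted p = 0.0842), and the other without DMSO day 6 replicate 2 (-1.05, adjusted p = 0.087) or 3. Mean RGS20 was 3.21 ± 0.606 CPM in DMSO day 3 and lower in every other NOMO1 group. At day 3 it was 0.867 ± 0.221 CPM under VTP-50469 and 0.926 ± 0.171 CPM in the combination, and under selumetinib 1.25 ± 0.517 CPM (SD, n = 3 each). RGS17, also of the RZ subfamily, was low throughout and rose in the NOMO1 combination. It had 17, 27 and 17 counts there at day 6, against 3, 4 and 3 in DMSO (2.76 ± 0.88, adjusted p = 0.00941). At day 3 it had 34, 25 and 37 counts in the combination, against 14, 4 and 0 in DMSO (2.16 ± 0.82, adjusted p = 0.0256). The day 3 value was 3.60, adjusted p = 0.00364 without DMSO replicate 1, and its call was lost without combination replicate 1 or 3 or DMSO replicate 2 or 3 (1.62 to 2.08). RGS9, of the R7 subfamily, was tested in both lines and ran over group means from 1.28 to 2.36 CPM in NOMO1 and 0.582 to 1.63 CPM in OCI-AML3. RGS11, also of the R7 subfamily (0.0688 to 0.769 CPM), and RGS9BP, which anchors RGS9 (0.643 to 1.22 CPM), were tested in OCI-AML3. None of these 3 genes passed under a treatment against DMSO, with smallest unadjusted p of 0.0413, 0.103 and 0.184. RGS7, RGS7BP and RGS21 had 0 counts in both lines. RGS13, a neighbour of RGS1, had 5 counts over all of NOMO1 and 0 in OCI-AML3.

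Genes that act with the RGS proteins were taken as lists, also chosen with earlier results known. Of 13 alpha subunit genes 12 could be tested in each line. Under VTP-50469 day 6, 4 rose and 1 fell, 41.7% of those tested beside 48.8% of all genes (median log2 fold change 0.20, beside -0.01 over all genes) in NOMO1 and 6 rose and 2 fell, 66.7% of those tested beside 34.7% of all genes (median log2 fold change 0.52, beside 0.01 over all genes) in OCI-AML3. GNAI2, a Gi subunit, rose in NOMO1 (0.71 ± 0.06, adjusted p = 5.97e-11) and OCI-AML3 (0.73 ± 0.11, adjusted p = 8.05e-06). GNAI1, another Gi subunit, fell in NOMO1 (-0.93 ± 0.12, adjusted p = 3.48e-07) and rose in OCI-AML3 (1.40 ± 0.15, adjusted p = 1.34e-08). GNAQ, the Gq subunit, rose in NOMO1 (0.57 ± 0.10, adjusted p = 1.87e-05), and GNA11, of the same class, rose in OCI-AML3 (1.48 ± 0.14, adjusted p = 1.22e-09). Of 16 beta and gamma genes 11 could be tested, and 6 rose and 2 fell, 72.7% of those tested beside 48.8% of all genes (median log2 fold change 0.33, beside -0.01 over all genes) in NOMO1 and 6 rose and 0 fell, 54.5% of those tested beside 34.7% of all genes (median log2 fold change 0.49, beside 0.01 over all genes) in OCI-AML3. Among them, GNG4 fell in NOMO1 (-4.33 ± 0.37, adjusted p = 1.91e-09) and GNG2 rose in OCI-AML3 (2.20 ± 0.18, adjusted p = 4.9e-09). Of 7 receptor kinases and arrestins, which end signalling at the receptor, 5 rose and 0 fell, 71.4% of those tested beside 48.8% of all genes (median log2 fold change 0.54, beside -0.01 over all genes) in NOMO1 and 2 rose and 2 fell, 57.1% of those tested beside 34.7% of all genes (median log2 fold change 0.05, beside 0.01 over all genes) in OCI-AML3. GRK6 rose in NOMO1 (0.54 ± 0.07, adjusted p = 2.35e-07) and fell in OCI-AML3 (-0.67 ± 0.08, adjusted p = 1.09e-07), and ARRB2 rose in NOMO1 (1.41 ± 0.13, adjusted p = 2.32e-08). Of 13 adenylyl cyclase and phospholipase C beta genes, the effectors, 9 could be tested in NOMO1 and 11 in OCI-AML3. Of these, 5 rose and 1 fell, 66.7% of those tested beside 48.8% of all genes (median log2 fold change 0.32, beside -0.01 over all genes) in NOMO1 and 4 rose and 2 fell, 54.5% of those tested beside 34.7% of all genes (median log2 fold change 0.23, beside 0.01 over all genes) in OCI-AML3. ADCY7 rose in NOMO1 (0.87 ± 0.08, adjusted p = 4.71e-10) and OCI-AML3 (1.77 ± 0.19, adjusted p = 1.65e-08).

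A list of 14 targets and feedback regulators of ERK was read beside RGS1 and RGS16. Under selumetinib alone, 0 rose and 12 fell, 85.7% of those tested beside 54.1% of all genes (median log2 fold change -2.83, beside 0.02 over all genes) in NOMO1 and 1 rose and 13 fell, 100.0% of those tested beside 27.4% of all genes (median log2 fold change -1.01, beside 0.02 over all genes) in OCI-AML3. DUSP6, an ERK phosphatase, fell in NOMO1 (-3.40 ± 0.17, adjusted p = 1.65e-13), and EGR1, an immediate early transcription factor, fell in OCI-AML3 (-5.48 ± 0.49, adjusted p = 7.75e-07). Under VTP-50469 day 6, 9 rose and 1 fell, 71.4% of those tested beside 48.8% of all genes (median log2 fold change 1.27, beside -0.01 over all genes) in NOMO1 and 8 rose and 1 fell, 64.3% of those tested beside 34.7% of all genes (median log2 fold change 0.49, beside 0.01 over all genes) in OCI-AML3. DUSP6 rose there in NOMO1 (2.34 ± 0.14, adjusted p = 4.14e-12). In OCI-AML3 the genes that rose included SPRED1 (0.98 ± 0.12, adjusted p = 6.98e-08), PHLDA1 (2.38 ± 0.31, adjusted p = 1.26e-05) and ETV5 (1.45 ± 0.21, adjusted p = 1.52e-05). EGR1 was the 1 gene of the list that fell in OCI-AML3 (-4.44 ± 0.46, adjusted p = 2.03e-06). RGS16 was lower in that comparison in both lines, as given above.

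The 3 genes whose log2 CPM followed a member most closely over the 21 libraries of a line are named as a description, since libraries share groups, depth and treatment. RGS16 was followed in NOMO1 by UBA2 (0.954), LDHA (0.953) and NET1 (0.95), and in OCI-AML3 by NR4A1 (0.966), LCP1 (0.966) and RPF1 (0.96) (Pearson r in brackets, as below). RGS18 was followed in NOMO1 by BNIP2 (0.964), MGAT4A (0.964) and SLCO4C1 (0.958), and in OCI-AML3 by KLHL24 (0.977), EVI2B (0.975) and MR1 (0.97). RGS4 was followed in OCI-AML3 by LINC02228 (0.974), IGFBP4 (0.952) and SOD1 (0.942). These r values rest on the libraries given VTP-50469 alone, with 262, 190 and 330 RGS4 counts at day 6 and 9, 30 and 5 at day 3. In the other groups of the line RGS4 was at or near the floor. Its r thus cannot tell a shared pattern from a shift under that drug, and nothing is drawn from it. RGS1 was followed in NOMO1 by FCER2 (0.933), ADM (0.93) and PLAUR (0.929). RGS2 was followed in NOMO1 by CXCL16 (0.965), FTH1 (0.965) and HAVCR2 (0.952). RGS1 and RGS4 had such genes in a single line. For the members with such genes in both lines, none of the 3 was shared. With only 3 genes taken per line, this cannot show a difference between the lines.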

How the data were processed

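RNA of 42 libraries (2×150 bases, polyA, unstranded, per the labels' protocols) was sequenced by the authors. The deposited table holds raw read counts per gene, and its header names GENCODE 30. Per the submitters' processing notes, FastQC 0.11.9, MultiQC 1.14, STAR 2.11a, featureCounts (Subread 2.0.6), DESeq2 1.44.0 and hg38 were used, with no role or order given. The columns of 3 other libraries were not used here, and 1 gene with an empty cell and 19 rows with no gene name (126 reads) were left out, which gave 58850 genes.

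Groups came from the labels. The members and gene lists were chosen with earlier results of these data known. All 8 members are described, with no test for RGS4 in either line or for RGS1 between lines under DMSO, whose counts were at 0 in whole groups. Also named were up to 4 called genes of smallest adjusted p from each list of related genes, every other RGS gene that passed the filter, and the 3 genes of highest Pearson r with a member over the libraries of a line. Counts were filtered with filterByExpr, scaled with TMM and tested in R 4.3.3 with the robust quasi-likelihood test of edgeR 4.0.16, with 1 fit over the 7 groups of each line and 1 over all 14 groups for differences between lines. P-values were adjusted after Benjamini and Hochberg over all genes tested, with a threshold of 0.05. CPM divides counts by TMM-scaled totals, and RPKM also by the exon length of GENCODE 29. CPM of the cell type markers divides by plain library totals. The fit of each line was tested on simulated counts for VTP-50469 day 6 against DMSO day 6. Known folds were given there to far fewer genes than passed in these data. Other comparisons and the fit over both lines were not simulated. Replicate numbers are shared between groups. Deviations of libraries with the same number correlated at -0.0625 to 0.0434 in NOMO1 and -0.0762 to 0.0428 in OCI-AML3, so the libraries were taken to share only a number. Alternatives were library totals, relative log expression size factors, DESeq2 1.42.0, other filters, only the groups compared, DMSO day 6 as control, a replicate block, mitochondrial genes left out and each library left out in turn. Depth sets the precision of low genes, and intervals and floors of 3 counts cover counting error only.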

Additional observations from a re-analysis of the deposited data

Results flagged for a closer look

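Differences between the lines in the same contrast at day 6 are listed as log2 fold change in NOMO1 minus that in OCI-AML3, each past an adjusted p of 0.05 in edgeR's test of the difference itself. Under VTP-50469 against DMSO they were 1.35 for RGS2, -1.75 for RGS16, 1.01 for RGS10, 0.98 for RGS18, 0.65 for RGS14 and 1.30 for RGS19. For the combination against DMSO they were 2.03 for RGS2, 1.22 for RGS10 and 0.61 for RGS19. For the combination against VTP-50469 alone they were -1.17 for RGS18 and -0.69 for RGS19. RGS19 under VTP-50469 day 6 passed in both lines with opposite signs, positive in NOMO1 and negative in OCI-AML3, while RGS10 fell in OCI-AML3 and did not pass in NOMO1 (0.20 ± 0.13, adjusted p = 0.225). Groups of 3 libraries were too small for a test of single outlying libraries.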

How the results depend on the processing

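Over the alternatives other than leaving out a library, 1096 of 1180 fold changes of members kept their direction and their side of the threshold, and leaving out 1 library kept 927 of 1032. Library totals in place of TMM moved the median of all genes by over 0.1 in 10 comparisons (log2 shifts of -0.395 to 0.374). Fold changes that changed sign are given as gene and log2 value. With library totals these were RGS10 -0.21 and RGS14 -0.0928 (DMSO between lines), RGS19 0.27 (NOMO1 combination day 3), RGS14 0.29 and RGS19 0.30 (NOMO1 DMSO days), RGS14 0.33 and RGS19 0.23 (NOMO1 selumetinib), RGS14 -0.37 (NOMO1 departure from additivity). With DMSO day 6 as control these were RGS19 0.00329 (NOMO1 combination day 3), RGS10 0.13 and RGS16 -0.43 and RGS2 -0.0467 (NOMO1 VTP-50469 day 3), RGS10 -0.15 and RGS14 -0.0223 (NOMO1 departure from additivity), RGS2 -0.0725 (OCI-AML3 combination day 3), RGS16 -0.14 (OCI-AML3 departure from additivity). With no filter these were RGS19 0.0171 (NOMO1 combination day 3), RGS14 0.0177 and RGS19 0.0253 (NOMO1 DMSO days), RGS14 0.00164 (NOMO1 selumetinib), RGS14 -0.0319 (NOMO1 departure from additivity), RGS2 -0.0154 (OCI-AML3 combination day 6), RGS18 -0.00866 (OCI-AML3 VTP-50469 day 6). With a filter of 1 CPM it was RGS2 -0.0038 (NOMO1 VTP-50469 day 3), with relative log expression size factors RGS2 -0.00129 (NOMO1 VTP-50469 day 3), with the replicate block RGS2 -0.0109 (OCI-AML3 departure from additivity), and without mitochondrial genes RGS2 -0.00589 (OCI-AML3 departure from additivity). Of all these, RGS19 in the NOMO1 combination day 3 and between the NOMO1 DMSO days was called with library totals, and RGS10 in NOMO1 under VTP-50469 day 3 was called before the change. The others passed neither way. Leaving out 1 library changed the sign of fold changes that passed neither way. In NOMO1 their ranges were RGS19 -0.0858 to 0.0759 (combination day 3), RGS14 -0.20 to 0.26 and RGS18 -0.0134 to 0.11 (combination day 3 against VTP-50469), RGS1 -0.00335 to 0.54 and RGS14 -0.11 to 0.11 and RGS19 -0.0538 to 0.0898 and RGS2 -0.0381 to 0.24 (DMSO days), RGS14 -0.0993 to 0.0993 (selumetinib), RGS16 -0.63 to 0.69 and RGS2 -0.43 to 0.28 (VTP-50469 day 3), RGS1 -0.093 to 0.45 (VTP-50469 day 6), RGS14 -0.17 to 0.29 and RGS2 -0.66 to 0.0518 (departure from additivity). In OCI-AML3 their ranges were RGS2 -0.23 to 0.29 (combination day 3), RGS14 -0.18 to 0.0154 and RGS2 -0.11 to 0.41 (combination day 3 against VTP-50469), RGS2 -0.17 to 0.22 (combination day 6), RGS10 -0.0126 to 0.0887 and RGS2 -0.11 to 0.27 (DMSO days), RGS18 -0.0659 to 0.12 (VTP-50469 day 6), RGS16 -0.32 to 0.29 and RGS2 -0.28 to 0.24 (departure from additivity). Between lines under DMSO it was RGS10 -0.0017 to 0.12 (DMSO between lines). The cause was not tested for any of these. Members called in the NOMO1 combination against VTP-50469 at day 6 were 5 when only the groups compared were fitted, against 2. In the NOMO1 departure from additivity they were 1 with DMSO day 6 as control, against 2. Under selumetinib in OCI-AML3 they were 2 with library totals, against 4. In the OCI-AML3 combination against VTP-50469 at day 6 they were 2 with DESeq2, a filter of 1 CPM, library totals, only the groups compared and the replicate block, against 1. In the OCI-AML3 departure from additivity 1 member, RGS18, was called with DESeq2, DMSO day 6 as control, a filter of 1 CPM, library totals, no filter, only the groups compared, and relative log expression size factors, against 0. The shares of all genes given above are those of the main fit. Shares under these other settings are not given, so nothing about the members is drawn from these counts. The cause was not tested for these counts.

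Leaving out 1 library, members called in NOMO1 ranged from 3 to 5 (VTP-50469 day 3), 5 to 5 (day 6), 3 to 4 (selumetinib), 5 to 6 and 4 to 6 (combination, day 3 and day 6), 4 to 5 and 2 to 2 (combination against VTP-50469), 2 to 4 (departure from additivity) and 2 to 2 (DMSO days). In OCI-AML3 they ranged, in the same order, from 1 to 3, 4 to 4, 2 to 3, 4 to 5 and 4 to 5, 3 to 3 and 1 to 2, 0 to 1 and 0 to 0. Between lines they ranged from 5 to 6 (VTP-50469), 3 to 4 (combination), 2 to 2 (combination against VTP-50469) and 3 to 3 (DMSO). The share of all genes that passed without each library is not given, so these ranges show only how calls of members moved. The replicate block changed 1 call of 141, RGS16 in the OCI-AML3 combination against VTP-50469 at day 6 (-1.05, adjusted p = 0.0364), and no other call.

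Depth limits RGS4 in NOMO1 and RGS1 in OCI-AML3, where a count of 0 over the line allows up to 0.0077 CPM of RGS1. With 3 libraries a group, calls near the threshold turned on single libraries. Selumetinib alone has no DMSO group of its labelled day 1.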
